A study of Homo sapiens with 24 samples.

Results

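The zinc finger genes of chromosome 19 were examined for N6-methyladenosine (m6A), a methyl mark on adenosines of mRNA, in HepG2, an established liver cancer cell line. The members were all protein-coding RefSeq genes of chromosome 19 whose symbol begins with ZNF, which gave 250 genes of the 1451 protein-coding genes of that chromosome and of 20056 in the genome. Membership was set by symbol and position and used no measured value. Of the 250 members, 45 overlapped the span of another protein-coding gene, and 4 had a hyphenated symbol: the readthrough genes ZNF559-ZNF177, ZNF816-ZNF321P and ZNF765-ZNF761, and ZNF470-DT.

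Most of these genes code for proteins with a row of C2H2 zinc fingers, each a short fold around a zinc ion that contacts DNA, and many also carry a KRAB domain. KRAB zinc finger proteins bind chosen sequences, often in transposable elements, and recruit the cofactor TRIM28 (KAP1), which brings the histone methyltransferase SETDB1 and heterochromatin protein 1. The genes arose by repeated tandem duplication and lie in clusters, and their fingers are encoded in a single long last exon. Long internal exons and the region around the stop codon are where m6A, deposited by the METTL3 and METTL14 complex, is known to be frequent.

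The study made 4 stable HepG2 lines by lentiviral integration and puromycin selection, and each carried 1 cassette. The control line expressed EGFP, a fluorescent protein, and the others expressed METTL14 as wild type (WT), as R298P, a substitution known from tumours, or as D312A. The 3 METTL14 lines therefore overexpressed the protein in cells whose own METTL14 gene the labels do not describe as altered. Each line gave 3 biological replicates with 1 immunoprecipitated (IP) and 1 input library each, 24 samples in all. The labels do not say that a line came from more than 1 transduction, so the spread between replicates may not include that between independent lines.

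The 12 IP libraries were compared through the authors' deposited lists of peak summits, the points of highest antibody enrichment, which held 8669 to 15373 summits. The sources used here give no read numbers per library, and depth is therefore unknown. In bulk RNA, fewer transcripts of a gene and fewer marks per transcript cannot be told apart by a summit list. Replicate 2 of D312A stood apart with the shortest list, and results that rest on it are given with and without it. METTL14 itself held 1 summit in each EGFP library and 3 to 11 in the 9 METTL14 libraries, over its whole span. Of 8 hepatocyte genes all held summits in some library, but their summed number ran from 6 in D312A replicate 3 and 10 in EGFP replicate 2 to 94 in WT replicate 1. ALB and APOB were at 0 in those first libraries, while HNF4A, a defining liver factor, held 5 to 11 summits in every library. Fibroblast, blood and endothelial lists had summits in 1 of 6, 3 of 5 and 2 of 4 genes, with 0 to 2, 2 to 6 and 0 to 1 summits per library. Those with summits were LYZ and CD14 in 10 libraries each, PDGFRB in 5, CD68 and CDH5 in 2 each and PECAM1 in 1. The other genes of these lists, among them COL1A1, PTPRC and VWF, were at 0 in all. The part of these differences in the results below was not tested.

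Zinc finger genes of chromosome 19 carried m6A summits more often than their neighbours. A member was counted as holding a summit when a summit lay anywhere between its annotated start and end. The share of members with a summit was 63.6%, 56.0% and 58.0% in the EGFP libraries, and 58.8%, 58.4% and 68.8% in the WT libraries. It was 56.4%, 56.8% and 65.6% in the R298P libraries and 58.0%, 38% and 57.6% in the D312A libraries. The 1201 other protein-coding genes of the chromosome held summits in 28.4% ± 3.07 (SD, n = 12 libraries) of cases, against 58.0% ± 7.48 of the members. In every library the member share was the higher, by 1.79 to 2.30 times, and D312A replicate 2 gave the lowest ratio. Without that library the difference was 30.7 ± 3.84 percentage points (SD, n = 11), and with it 29.6 ± 5.45. No test was run on this difference, since genes of 1 library are not replicates.

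**Figure D1:**
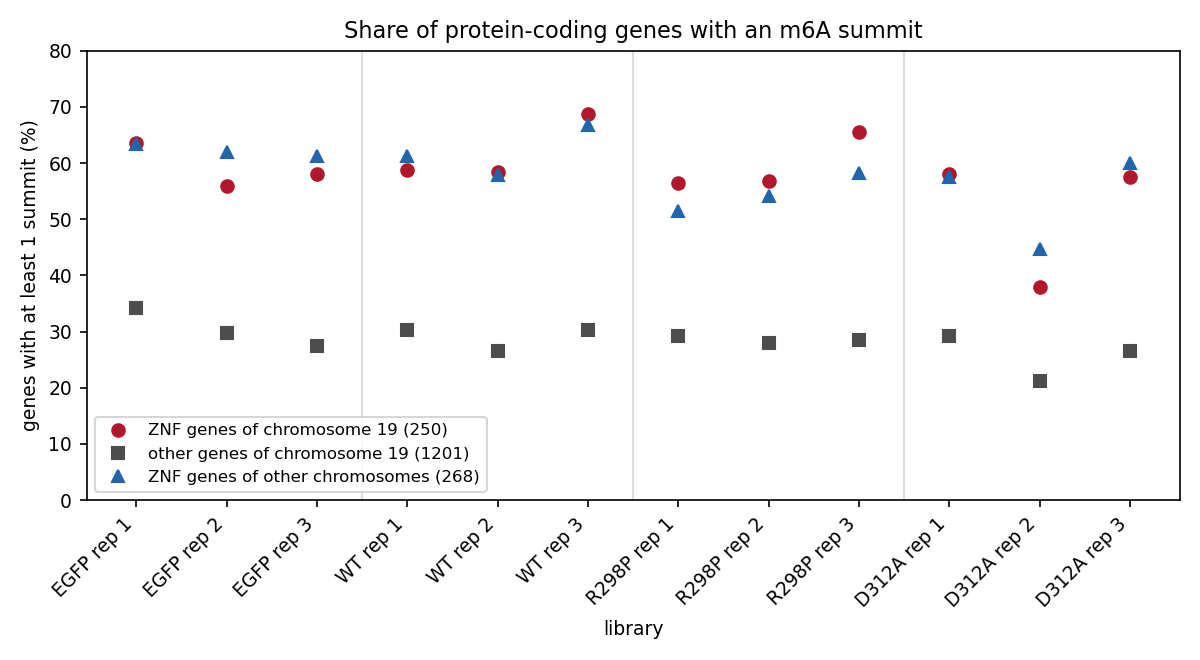
Percent of genes with at least 1 m6A summit (y axis) in each of the 12 IP libraries (x axis) for the 250 ZNF genes of chromosome 19, the 1201 other protein-coding genes of that chromosome and the 268 ZNF genes of other chromosomes. Each point is 1 library; the members lie above the other genes of the chromosome in all 12 and close to the ZNF genes elsewhere.

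The high share was not particular to chromosome 19. The 268 protein-coding ZNF genes of other chromosomes held summits in 58.2% ± 5.87 (SD, n = 12) of cases, and the difference from the members was -0.21 ± 4.19 percentage points, with members higher in some libraries and lower in others. The difference was 4.91, 2.696 and 7.39 points in the R298P libraries and from -6.78 to 2.01 in the other 9, so the R298P libraries lay above all others. This was seen after the data were examined and was not tested. The mean share of the ZNF genes elsewhere was 54.6% in R298P, 62.2% in EGFP, 61.9% in WT and 54.1% in D312A with replicate 2 included. For members the means in the same order were 59.6%, 59.2%, 62.0% and 51.2%. Over all 20056 protein-coding genes the share was 31.5% ± 2.77. A member that held any summit held 2.02 ± 0.20 on average, against 1.83 ± 0.13 for a holder among the other genes of the chromosome. Holders over all protein-coding genes held 1.98 ± 0.11, near the members, and those among ZNF genes of other chromosomes held more, 2.37 ± 0.20.

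Members are longer than their neighbours, with a median span of 23250 nt against 12690 nt, so the shares were also set side by side within classes of span length. Below 10000 nt, 50.3% of 28 members and 19.6% of 471 other genes held a summit in an average library. From 10000 to 20000 nt the shares were 64.3% and 26.3%, and from 20000 to 30000 nt 65.5% and 40.2%. In the longer classes the sets lay closer, at 47.5% and 38.9% from 30000 to 50000 nt and at 51.9% and 44.1% from 50000 nt. The members were therefore higher in each of the 5 classes. Expression of these genes was not analysed here, and its part in the difference was not tested.

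The summits of members lay at another place in the gene than those of their neighbours. The position was taken for the 219 members and 966 other genes whose strand the reference gave. In members 54.3% ± 2.37 (SD, n = 12 libraries) of summits lay 1000 to 5000 nt upstream of the annotated gene end, against 34.8% ± 2.05 in the other genes of the chromosome. Within 1000 nt of the end the order was the opposite, with 16.6% ± 1.76 in members and 31.1% ± 2.35 in the other genes. The ranges over libraries of both measures did not overlap between the sets: 51.3% to 58.7% against 31.7% to 38.1%, and 14.1% to 19.4% against 26.96% to 34.8%. The ZNF genes of other chromosomes resembled the members near the end, at 16.1% ± 1.69, but held 38.1% ± 0.99 of their summits at 1000 to 5000 nt. The bin from 4000 to 5000 nt held 10.8% ± 1.74 of member summits, 3.30% ± 0.44 of those in the other genes and 6.74% ± 0.70 of those in ZNF genes elsewhere. Spans include introns, so these are genomic distances and not distances along an mRNA. The other genes also have shorter spans, with a median of 12690 nt against 23250 nt, which limits how far from the end a summit can lie. Position was not compared within classes of span length, and the part of length in these differences was not tested.

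**Figure D2:**
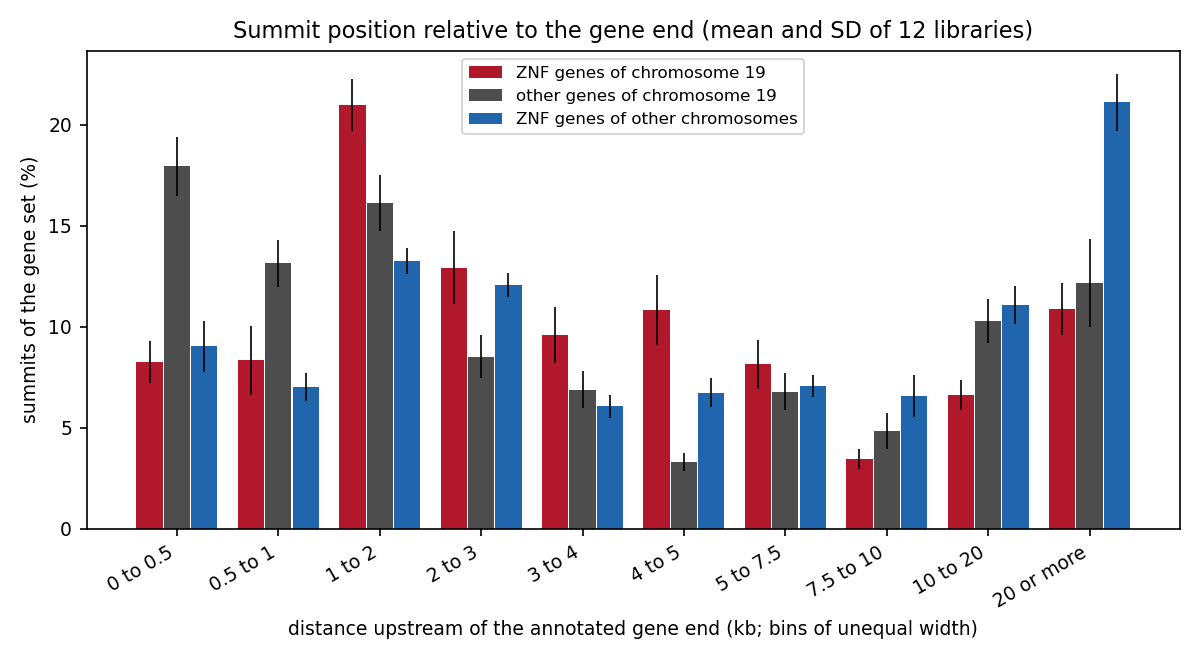
Percent of a gene set's summits (y axis) by distance upstream of the annotated gene end in kb (x axis, bins of unequal width) for ZNF genes of chromosome 19, other genes of that chromosome and ZNF genes of other chromosomes. Bars are means and lines SDs over the 12 libraries; the members peak at 1 to 2 kb, with 20.98% of their summits, and the other genes of the chromosome at 0 to 0.5 kb, with 17.9%.

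Few member summits lay near the gene start. The part of the span nearest the start, from 0% to 10% of its length, held 3.28% ± 0.79 (SD, n = 12) of summits in members and 12.1% ± 2.22 in the other genes of the chromosome, and the second part of the span, past its midpoint, held 86.0% ± 0.94 against 73.5% ± 3.22. ZNF genes of other chromosomes were nearer the members in the first of these parts, at 5.21% ± 0.99. Past the midpoint they were nearer the other genes of chromosome 19, at 75.1% ± 1.28. In the window from 250 nt before to 50 nt after an annotated start, 20 of 219 members had a summit in at least 1 library, or 9.13%, against 81 of 966 other genes, or 8.39%. Only ZNF432, ZNF613 and ZNF579 did so in 3 or more of the 12 libraries. Their start sequences are shown because their summits recurred within this window. They are not the only recurrent marks near a start: ZNF787 held a region at chr19:56121177-56121209, inside the gene and past the window's edge, in all 12 libraries, and ZNF526 one at chr19:42220361-42220390 in 2 WT, 3 R298P and 2 D312A libraries. Each sequence is 30 bases of the gene's strand at the middle summit, from RefSeq (GRCh38.p14), 5′ to 3′, with GGAC, the core of the motif known for m6A, in capitals where present.
ZNF613: aattcaggaaagtgcaggttctgggaagtc
ZNF432: agggctgaggtgtctggaaatcGGACagtt
ZNF579: cgtggggaaggaagaaaggagccaaggagg

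The ZNF613 piece is chr19:51927487-51927516 on the plus strand, and its summits lay 25 to 32 nt after the start in EGFP replicate 2, WT replicate 2 and R298P replicate 3. The ZNF432 piece is chr19:52048973-52049002 on the minus strand, and holds 1 of the 4 summits, which were spread over 118 nt before the start and so outside the gene's span, in EGFP replicate 1, R298P replicate 1 and D312A replicates 1 and 3. The ZNF579 piece is chr19:55580799-55580828 on the minus strand, with summits 41 to 47 nt after the start in EGFP replicates 1 and 2 and WT replicate 2. Only the ZNF432 piece holds GGAC, and no piece holds it on the opposite strand; of all 351160 pieces of 30 bases in the start windows, 10.3% hold it on the gene's strand and 19.7% on either. No line had a start summit in all of its libraries for these genes.

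The summits of members were of middling strength. Ranked by the authors' summit value within their list, member summits had a median percentile of 47.2 ± 4.13 (SD, n = 12), against 48.1 ± 2.65 for the other genes of the chromosome. The lowest median, 38.1, was that of D312A replicate 2, and without it the members' mean was 48.0 ± 3.13.

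A larger share of members than of other genes of the chromosome held a summit in all 12 libraries, and a larger share held one in any. A summit was present in all 12 libraries for 73 members, or 29.2%, against 165 of the other genes of the chromosome, or 13.7%, and 17.0% of all protein-coding genes. ZNF genes of other chromosomes held one in all 12 libraries in 33.6% of cases and in none in 20.9%. No summit was found in any library for 45 members, or 18.0%, against 50.0% of the other genes. The remaining 132 members held a summit in 1 to 11 libraries, and 29 of them in 11. Of the genes with a summit in any library, 73 of 205 members held one in all 12, beside 165 of 601 other genes of the chromosome. Over all protein-coding genes it was 3410 of 10287, so much of the excess at 12 libraries restates that more members held any summit. Among the 45 without a summit were ZNF93, which is known to silence L1 retrotransposons, and ZNF154 and ZNF671, known for promoter methylation in cancers; these 3 were chosen after their values were seen. ZNF91, which is known to silence SVA elements, held 2, 2 and 1 summits in the EGFP libraries, 4, 1 and 3 in WT, 0, 2 and 1 in R298P and 1, 1 and 2 in D312A, and was likewise chosen after its values were seen. Since depth and expression are unknown here, a member without a summit is not shown to lack the mark.

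**Figure D3:**
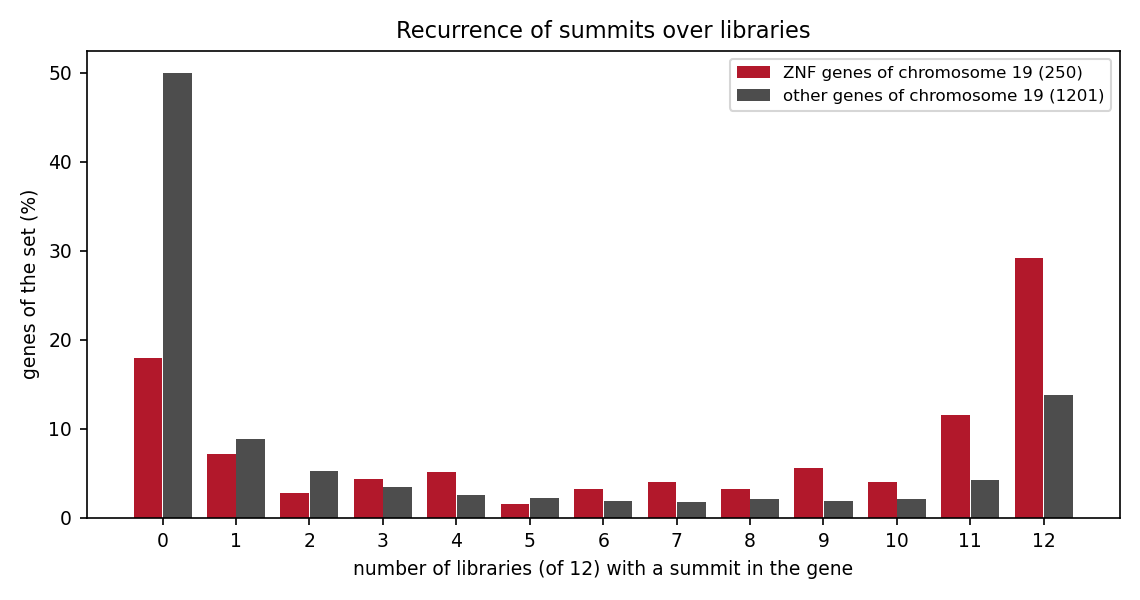
Percent of the gene set (y axis) by the number of the 12 libraries in which the gene holds a summit (x axis) for the 250 ZNF genes of chromosome 19 and the 1201 other protein-coding genes of that chromosome. The members are fewer at 0 libraries, 18.0% against 50.0%, and more at 12, 29.2% against 13.7%.

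The clusters of the chromosome differed in how many of their genes were marked. Members separated by no more than 500000 nt were joined, which gave 8 clusters of at least 10 members and 24 members outside them. The cluster at chr19:19668153-24129968 stood lowest: of its 37 members 32.7% held a summit in an average library, between 21.6% and 46.0%, and 14 held none in any. The cluster at chr19:11483429-12633834 stood highest, with 78.0% of its 25 members, between 68.0% and 84.0%, and 1 member without a summit. These ranges did not overlap. The lowest cluster also had longer genes, with a median span of 34630 nt against 21680 nt, and the part of length in the difference was not tested. The cluster nearest the long-arm end, chr19:57191500-58489533, held summits in 68.4% of 43 members, and that at chr19:51571283-53580269 in 61.2% of 41. In the latter, only 1.19% of the 14 other protein-coding genes in the same stretch held a summit in an average library, and in the cluster at chr19:8509678-9786160, where 60.7% of 14 members did, none of the 14 other genes did in any library. Elsewhere the gap was smaller: at chr19:36182060-37779586 the 4 other genes were at 50.0% and the 26 members at 51.0%, and the other genes were at 35.4% in the cluster that stood highest and at 31.4% in that nearest the long-arm end. In the last 2 clusters the members were at 46.6% and 59.4%.

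Tandem copies of these genes share long stretches of sequence. The placing of reads that match several copies is not stated in the sources used here, so a summit in one member may stem in part from a near-identical neighbour.

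The members with the most summits are KRAB and other zinc finger genes of several clusters. ZNF69 led, with 13, 7 and 12 summits in the EGFP libraries, 9, 12 and 12 in WT, 8, 11 and 14 in R298P and 8, 5 and 9 in D312A. Its span of 92441 nt overlaps ZNF700 and ZNF763, and counting only summits in no other gene lowered its mean from 10.0 to 7.67. ZNF865, a short gene of 11623 nt at chr19:55605647-55617269, came next with 6, 7 and 3 summits in EGFP, 7, 2 and 4 in WT, 4 in each R298P library and 7, 2 and 5 in D312A. Its lines overlapped throughout.

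ZNF564 held 6, 3 and 3 summits in EGFP, 6, 5 and 5 in WT, 3, 4 and 5 in R298P and 4, 3 and 4 in D312A. ZNF44 held 6, 3 and 4 in EGFP, 4, 5 and 8 in WT, 2, 4 and 5 in R298P and 2, 3 and 3 in D312A. In both genes the D312A libraries all lay below the WT libraries. ZNF507 averaged 3.92 ± 1.00 (SD, n = 12), ZNF121 3.83 ± 0.94 and ZNF526 3.83 ± 1.12, and each held at least 2 summits in every library. ZNF526 is the most densely marked of these by span, since it covers only 7890 nt. ZNF780A averaged 3.50 ± 1.31, ZNF561 3.25 ± 1.06, ZNF460 3.25 ± 1.55 and ZNF584 3.17 ± 0.83. ZNF565 averaged 3.17 ± 1.03, but its span overlaps ZNF146 and only 0.67 per library lay outside that gene. Over all 250 members the median of the mean was 0.92 summits per library, and 117 members averaged at least 1.

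**Figure D4:**
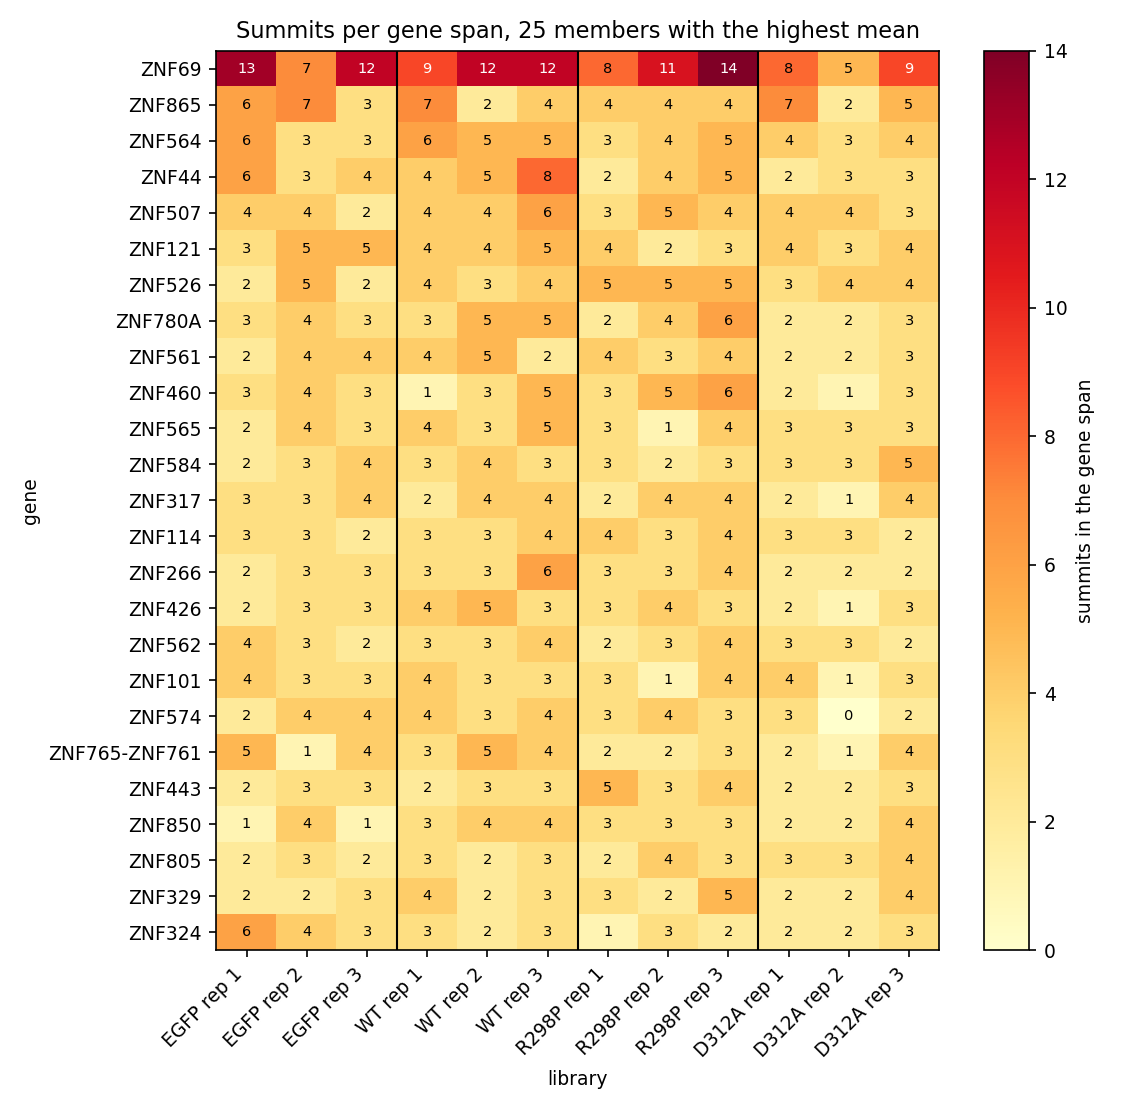
Number of summits in the gene span, as a colour and a number, for the 25 members with the highest mean (rows) in each of the 12 libraries (columns, grouped by line). ZNF69 stands above the rest with 5 to 14 summits, and no other member exceeds 8.

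Summits closer than 100 nt were merged into regions, 759 of which lay in members. Of these, 65 regions in 54 members were present in all 12 libraries, or 8.56%, against 9.91% of all 34313 regions. The strongest by mean rank within the lists was in ZNF274, at chr19:58213268-58213277, with a mean percentile of 98.7. ZNF274 is a KRAB zinc finger protein known to bind the ends of other zinc finger genes and to recruit SETDB1 there. It was followed by regions in ZNF865 at chr19:55616860-55616910, with 97.4, in ZNF548 at chr19:57398845-57398863, with 96.5, in ZNF121 at chr19:9566983-9566993, with 95.9, and in ZNF45 at chr19:43913209-43913234, with 93.9. The ZNF865 region lies close to the annotated end of the gene.

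Between lines, no difference in the number of member summits passed the test. The EGFP libraries held 343, 286 and 264 summits in members, WT 310, 280 and 381, R298P 250, 268 and 357, and D312A 266, 151 and 279. The means were 297.7 ± 40.8, 323.7 ± 51.9, 291.7 ± 57.3 and 232.0 ± 70.5 (SD, n = 3 each). The D312A libraries all lay below all WT libraries, though narrowly, at 279 for the highest D312A library and 280 for the lowest WT library. Every other pair of lines overlapped. The difference of D312A from WT was -91.7 summits, with p = 0.1 by the two-sided exact permutation test, the smallest p that 3 libraries against 3 can give, and 0.75 after Benjamini-Hochberg adjustment over the 18 tests of 6 pairs and 3 measures. The share of members with a summit differed by -10.8 percentage points in the same pair, with the same exact p of 0.1 and adjusted p of 0.75. Without D312A replicate 2 these differences were -51.2 summits and -4.2 points. With each list cut to its 8669 best summits they were -18.7 summits, exact permutation p = 0.6, and -2.4 points, p = 0.8. For summits in 1 span alone D312A and WT overlapped, with 268 in D312A replicate 3 and 267 in WT replicate 2. The difference was then -88.7 summits, exact permutation p = 0.2.

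No pair of lines passed after adjustment, and the adjusted p of all 18 exact permutation tests was between 0.75 and 0.9. Relative to the length of the list, 2.23%, 2.06% and 2.08% of EGFP summits lay in members, 2.095%, 2.22% and 2.52% of WT summits, 2.09%, 2.31% and 2.60% of R298P summits and 2.15%, 1.74% and 2.26% of D312A summits. These shares overlapped in all 6 pairs. The line accounted for 34.9% of the variance of the member summits, 32.3% of that of the share of members and 28.3% of that of the share of the list, with p = 0.345, 0.441 and 0.447 by exact permutation over all partitions into 4 groups of 3 and 0.447 after adjustment for each. Without D312A replicate 2 the shares of variance were 18.1%, 13.3% and 22.5%.

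Single members were then compared between lines by a rule on their libraries: a member was counted where every library of one line held more summits than every library of the other. The share of all protein-coding genes that met the same rule is given beside each count from the full lists with all replicates. Counts under other settings have no such background beside them, for genes or for regions. The 6 comparisons share libraries and are not independent, no single gene can pass a test with 3 libraries against 3, and the lists differ in length. Regions were counted as gained where they were present in 3 of 3 libraries of the first line and 0 of 3 of the second, and as lost in the opposite case, among regions present in exactly 3 of the 6. Because the criterion is strict, leaving out any replicate number from both lines let more genes and regions through in most comparisons, as given with the processing alternatives.

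Overexpressed WT METTL14 set few members apart from EGFP. Of 197 members with a summit in either line, 2 were higher in WT, against 0.821% of all protein-coding genes, and 4 were lower, against 0.597%. ZNF799 held 3, 3 and 4 summits in WT and 2 in each EGFP library. ZNF160 held 2 in each WT library and 1 in each EGFP library. Those lower in WT were ZNF627, with 2, 1 and 2 against 3, 3 and 4, ZNF606, with 1 in each against 2, 3 and 2, ZNF100, with 1 against 2 in each, and ZNF420, a KRAB protein known to restrain p53, with 0 against 1 in each. Of 67 member regions in exactly 3 of the 6 libraries, 2 were gained, against 4.09% of all such regions, at ZNF266 and ZNF14 (chr19:9414624-9414642 and chr19:19710667-19710684). The 1 lost region, against 2.56%, was in ZNF627 at chr19:11617483-11617492.

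R298P against EGFP gave 3 members higher and 1 lower of 199. The shares over all genes were 0.783% for higher and 3.1% for lower, beside 1.51% and 0.503% of the members. ZNF227 held 3, 2 and 3 summits in R298P and 1 in each EGFP library. ZNF234, of the same cluster, held 4 in each against 2, 3 and 3, and ZNF808 held 1, 1 and 2 against 0 in each. ZNF823 was the lower member, with 1, 1 and 2 summits against 3 in each EGFP library. Of 73 member regions, 6 were gained, against 7.35% of all, and 4 were lost, against 14.6%. The gained regions were in ZNF114 (chr19:48286446-48286467), ZNF266 (chr19:9413087-9413095), ZNF234 (chr19:44157531-44157580), ZNF561 (chr19:9610916-9610972), ZNF526 (chr19:42220361-42220390) and ZNF611 (chr19:52705615-52705629). The lost regions were in ZNF823 (chr19:11722693-11722729), ZNF211 (chr19:57641217-57641232), ZNF841 (chr19:52065352-52065495) and ZNF100 (chr19:21726495-21726619).

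D312A against EGFP gave 2 members higher and 4 lower of 187, against 0.153% and 3.16% of all genes, and beside 1.07% and 2.14% of the members. ZNF888 held 2, 2 and 3 summits in D312A and 1, 0 and 0 in EGFP, and ZNF791 held 2, 2 and 3 against 1 in each. With summit values of at least 10, 0 members were higher in D312A than in EGFP and 7 were lower. The part of list length in these calls was not tested. ZNF841 held 2, 0 and 1 in D312A against 3, 4 and 3, and ZNF823 held 1 against 3 in each library. ZNF358 held 0 in each D312A library against 2, 1 and 1, and ZNF160 held 0 against 1 in each. Of 81 member regions, 4 were gained, against 1.54% of all, and 8 were lost, against 10.8%. The gained regions were in ZNF714 (chr19:21116977-21116982), ZNF888 (chr19:52907552-52907561), ZNF791 (chr19:12629038-12629077) and the stretch shared by ZNF146 and ZNF565 (chr19:36235907-36235910). The lost regions were in ZNF561, ZNF490, ZNF211, ZNF358, ZNF225 and ZNF841, with 1 region each, and in ZNF823, with 2 regions at chr19:11722693-11722729 and chr19:11722305-11722336. Without replicate 2 of both lines, 7 members were higher, 15 were lower, 9 regions were gained and 23 were lost.

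R298P against WT gave 2 members higher and 7 lower of 198, against 0.721% and 3.3% of all genes, and beside 1.01% and 3.54% of the members. With lists cut to equal length the balance in members turned, to 5 members higher and 4 lower and to 12 regions gained and 5 lost. Whether it also turned over all genes and regions is not given here. ZNF350 (ZBRK1), a KRAB repressor known to bind BRCA1, held 1 summit in each R298P library and 3 in each WT library. ZNF146 held 2, 1 and 2 against 4, 3 and 3, all of them in the stretch it shares with ZNF565, and ZNF480 held 1, 1 and 2 against 3 in each. Higher in R298P were ZNF587, with 3, 2 and 3 against 1 in each, and ZNF526, with 5 in each against 4, 3 and 4. ZNF799 held 2 in each R298P library against 3, 3 and 4 in WT, and ZNF813 held 1 in each against 2, 2 and 3. Of 78 member regions, 4 were gained, against 6.65% of all, in ZNF627, ZNF841, ZNF8 and ZNF234. In the opposite direction 10 were lost, against 16.1%, and the 8 with the highest ranks were in ZNF480, ZNF266, ZNF616, ZNF211, ZNF350, ZNF296, ZNF14 and ZNF100.

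D312A against WT gave 0 members higher and 8 lower of 190, against 0.0884% and 3.44% of all genes; the 8 are 4.21% of the members. ZNF44 and ZNF564, described above, were among the lower members. ZNF160 held 0 summits in each D312A library and 2 in each WT library, so that it was above EGFP in WT and below EGFP in D312A. ZNF266 held 2 in each against 3, 3 and 6, ZNF787 held 1, 2 and 2 against 3 in each, and ZNF799 held 2 in each against 3, 3 and 4. Of 74 member regions, 1 was gained, against 1.02% of all, in ZNF791. The 10 lost regions, against 11.6%, included those in ZNF44 (chr19:12273595-12273654), ZNF69 (chr19:11906811-11906831), ZNF266 (chr19:9414624-9414642), ZNF564 (chr19:12526872-12526911), ZNF773 (chr19:57507652-57507687), ZNF211, ZNF136 and ZNF296. With each list cut to the length of the shortest, its 8669 best summits, 2 lower members and 6 lost regions were counted. Without replicate 2 of both lines, 6 members were higher, 20 were lower, 10 regions were gained and 26 were lost.

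D312A against R298P gave 1 member higher and 8 lower of 190, against 0.573% and 2.13% of all genes, and beside 0.526% and 4.21% of the members. The higher member, ZNF708, held 1 summit in each D312A library and 0 in each R298P library and was chosen after its values were seen. ZNF234 held 1, 1 and 3 summits in D312A against 4 in each R298P library, and ZNF8 held 2, 0 and 1 against 3 in each. ZNF266 held 2 in each against 3, 3 and 4, ZNF526 held 3, 4 and 4 against 5 in each, and ZNF808 held 0 in each against 1, 1 and 2. Of 68 member regions, 1 was gained, against 3.19% of all, in the stretch of ZNF146 and ZNF565. In the other direction 14 were lost, or 20.6% of the member regions against 12.9% of all, the largest number in the 6 comparisons when all replicates were used; without replicate 1 or 2 of both lines, more were lost in D312A against WT. The 8 with the highest ranks were in ZNF561 (chr19:9610105-9610114), ZNF114 (chr19:48286446-48286467), ZNF460 (chr19:57292227-57292256), ZNF44 (chr19:12273595-12273654), ZNF45 (chr19:43913411-43913442), ZNF841 (chr19:52066247-52066293), ZNF8 (chr19:58294867-58294891) and ZNF528 (chr19:52416926-52416958). Without replicate 2 of both lines, 8 members were higher, 19 were lower, 12 regions were gained and 25 were lost.

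**Figure D5:**
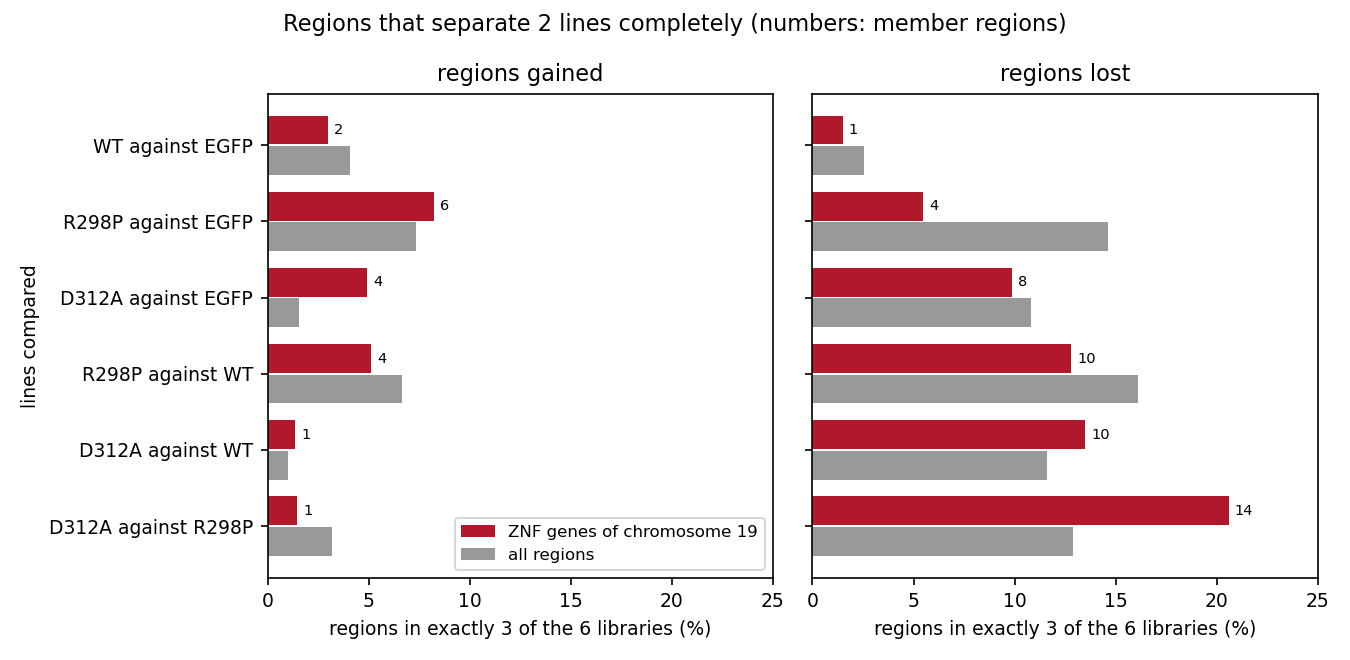
Percent of regions present in exactly 3 of the 6 libraries of a pair of lines (x axis) that were wholly in the first line (gained, left) or wholly in the second (lost, right), for each pair (y axis), in ZNF genes of chromosome 19 and over all regions. Numbers are member regions; with all replicates the highest count is 14, lost in D312A against R298P.

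Within members, 2 of the 759 regions marked a single line against the 9 libraries of the others. The share of all regions that met this rule is not given here, so the count has no background beside it. A region of ZNF266 at chr19:9414624-9414642 was present in all 3 WT libraries and in none of EGFP, R298P or D312A. Another, in ZNF234 at chr19:44157531-44157580, was present in all 3 R298P libraries and in no other, but merged with a neighbour when summits within 200 nt were joined. ZNF266 also held a region at chr19:9413087-9413095 that was present in 3 R298P libraries, 1 WT library and none of EGFP or D312A. With merging within 200 nt that region no longer counted as gained in R298P against EGFP. The regions of ZNF211 at chr19:57641217-57641232 and of ZNF823 at chr19:11722693-11722729 were absent from all R298P and D312A libraries and present in 3 EGFP libraries, and in 3 and 2 WT libraries. When summits within 200 nt were joined, the ZNF211 region still counted as lost in R298P but no longer in D312A.

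The cofactors through which KRAB proteins act were marked in 10 of 13 cases, with 8 to 21 summits per library in all. Of all protein-coding genes, 51.3% held a summit in some library and 17.0% in all 12, beside 3 of the 13 cofactors in all 12. SETDB1 held 2 to 3 summits in every library, TASOR, a subunit of the HUSH silencing complex, 3 to 6, and MORC2, a chromatin ATPase that works with HUSH, 2 to 5. ATF7IP, the partner of SETDB1, held 1 to 4 summits in 11 libraries and 0 in D312A replicate 2. MPHOSPH8, another HUSH subunit, held 1 to 2 in 10 libraries and 0 in WT replicate 2 and D312A replicate 2. TRIM28, which is itself on chromosome 19 and is the direct partner of the KRAB domain, held 0 in all 12, as did CBX5 and PPHLN1. HDAC1 and HDAC2, CHD3, CBX1 and CBX3 held 0 to 2 per library. HDAC2, a histone deacetylase, was the only one of the 13 whose libraries did not overlap in some pair of lines, with 2, 1 and 1 summits in WT and 0 in each EGFP library. All 6 pairs were looked at, and in this pair 0.821% of protein-coding genes with a summit in either line were higher in WT.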

How the data were processed

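m6A-seq of poly(A) RNA fragments of about 120 nt was deposited for 4 HepG2 lines with 3 replicates each, as 12 IP and 12 input libraries; sample titles gave the groups. Per IP library the authors deposited 1 summit list, each summit with a value read here as a −log10 p-value or q-value from its range, and which of these it is was not stated in the sources used here. Tools named, per the submitters' processing notes, include MACS2 2.1.2, STAR 2.7.9a, bedtools 2.17.0, HOMER 4.9, Picard and Trim Galore 0.4.4 with build hg38; settings are not given there. Depth is unknown, so no counting interval was set, and summit values were ranked only within a list.

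A summit was assigned to every protein-coding RefSeq span (GRCh38.p14) that holds it; 96.2% of member summits lay in 1 span. The lists carry no strand, and spans do not separate exons from introns, so an overlapping antisense gene cannot be told apart. Strand was known for the 219 members with a start sequence. Regions join summits within 100 nt. Per-library values were compared by two-sided exact permutation tests over 20 assignments for pairs and over all partitions for the 4 lines, with Benjamini-Hochberg adjustment over 18 and 3 tests. P-values measure the spread between the replicates of each line, which may not include that between independent transductions. Scripts ran in Python 3.11.15 with numpy 2.4.6 and pandas 2.3.3 and were tested on simulated data.

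Members named are the 12 with the highest mean, up to 5 per pair of lines with counts that do not overlap, ties included, those with the 8 highest-ranked gained or lost regions per pair and direction, and the fixed cofactor list; others are named as chosen after their values were seen. The members and lists were chosen with earlier results of these data known. Alternatives were lists of equal length (8669 summits), a value of at least 10, summits in 1 span alone, merging within 50 or 200 nt, no readthrough members, replicate subsets and a replicate block. The deposited expression table was not used: its genes carry Ensembl identifiers that the reference used here does not pair with symbols, and its 18 per-library columns have codes that match no sample label. The planned expression and protein analyses were therefore not run.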

Additional observations from a re-analysis of the deposited data

How the results depend on the processing

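Of 234 alternative values of the differences between lines, 207 kept their direction and 27 turned it. The 207 include the values of the replicate block, which equal the main differences by construction and could not turn. Under lists of equal length, R298P minus EGFP was 15.0 summits and R298P minus WT 2.0 summits and 2.0 percentage points. With summit values of at least 10, R298P minus EGFP was -1.07 points. Within replicate 1, WT minus EGFP was -33.0 summits, -4.8 points and -0.14% of the list; R298P minus EGFP -7.2 points and -0.14%; R298P minus WT -0.0047%; D312A minus WT 0.058%; and D312A minus R298P 16.0 summits, 1.6 points and 0.062%. Within replicates 2 and 3, R298P minus EGFP was 37.5 summits. Leaving out 1 library at a time, R298P minus EGFP ran from -38.7 to 16.7 summits and from -2.6 to 2.6 points, WT minus EGFP from -2.67 to 48.7 summits and from -0.60 to 5.0 points, R298P minus WT from -5.4 to 1.0 points and from -0.077% to 0.18% of the list, and D312A minus EGFP from -0.18% to 0.079%. The excess of members over other genes of the chromosome, 29.6 points, was 28.7 for summits in 1 span alone and 28.8 to 30.7 with 1 library left out, and the members differed from ZNF genes elsewhere by -0.21 points.

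Counts of members that do not overlap changed as follows. The share of all protein-coding genes under each of these settings is not given here, so the counts have no background beside them. With lists of equal length they were 2 lower for WT against EGFP, 5 higher and 2 lower for R298P against EGFP, 5 higher and 4 lower for R298P against WT, 2 lower for D312A against WT and 2 higher for D312A against R298P. With values of at least 10 they were 0 higher and 1 lower for WT against EGFP, 3 lower for R298P against EGFP, 0 higher and 7 lower for D312A against EGFP and 0 higher for D312A against R298P. Without 1 replicate number, which was added after the data were examined and lets more genes meet the rule, the higher and lower counts ran from 8 to 26 and 5 to 12 for WT against EGFP, 3 to 19 and 4 to 21 for R298P against EGFP, and 2 to 7 and 15 to 26 for D312A against EGFP. They ran from 7 to 11 and 18 to 22 for R298P against WT, 0 to 6 and 20 to 34 for D312A against WT, and 1 to 8 and 18 to 36 for D312A against R298P.

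For member regions, merging within 200 nt gave 0 lost for WT against EGFP, 3 gained and 2 lost for R298P against EGFP, 2 gained and 5 lost for D312A against EGFP, 1 gained for R298P against WT, 0 gained for D312A against WT and 0 gained for D312A against R298P. Lists of equal length gave 4 lost for D312A against EGFP, 12 gained and 5 lost for R298P against WT, and 0 gained and 6 lost for D312A against WT. Without 1 replicate number (leaving out 2 and 3 was added after the data were examined), gained and lost regions ran from 6 to 27 and 9 to 10 for WT against EGFP, 12 to 28 and 12 to 33 for R298P against EGFP, 4 to 9 and 23 to 28 for D312A against EGFP, 15 to 23 and 25 to 31 for R298P against WT, 1 to 10 and 25 to 39 for D312A against WT, and 7 to 12 and 25 to 38 for D312A against R298P. Merging within 50 nt moved no count by over 1.5 times. The share of all regions called under these settings is not given here, so the counts have no background beside them. The cause of these shifts was not tested, beyond the looser rule that fewer libraries make.

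Replicate numbers were not taken as pairing the libraries, since not every pair correlated above 0.1: deviations of same-numbered libraries correlated between -0.13 and 0.29 over members, above 0.1 in 8 of 18 pairs, among them EGFP and D312A in all 3 numbers. Some measures did follow the replicate number. The ratio of the member share to that of the other genes of the chromosome was highest in replicate 3 of every line. There it was 2.12 (EGFP), 2.27 (WT), 2.30 (R298P) and 2.16 (D312A). The median percentile of the other genes' summits was highest in replicate 2 of every line. The member share peaked in replicate 1 of EGFP and D312A and in replicate 3 of WT and R298P. The cause of these patterns was not tested. With a replicate block D312A minus WT had p = 0.25 by an exact sign-flip test, the smallest that 3 pairs allow. The block leaves every difference in means as it was, here -91.7 summits, so it could not turn a direction. The classes of span length were added after the data were examined. The planned classes of expression and the alternatives on the deposited expression table were not run. Unknown depth limits every absence of a summit.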
